A study of Mus musculus with 32 samples.

Results

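The 8 genes described here serve the burning of fatty acids and its control by the nuclear receptors called PPARs. They are Acadm, Acadl, Acadvl, Hadha, Cpt1a, Cpt1b, Pdk4 and Angptl4, taken by name from a mouse lung dataset of 46165 gene records, of which 18853 had at least 1 exon read. Each was followed as total exon reads scaled to library size across all 8 treatment groups, with the comparison of Miglyol, a medium-chain triglyceride oil used to dissolve drugs, against saline at the centre.

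Mitochondrial β-oxidation shortens a fatty acid step by step to acetyl-CoA. Carnitine palmitoyltransferase I loads long chains onto carnitine at the outer mitochondrial membrane, whereas medium chains can enter mitochondria largely without it. Fatty acids themselves are ligands of PPARs, which bind DNA with RXR and switch on many genes of fatty acid use, Cpt1a, Pdk4 and Angptl4 among them. In the lung such genes are active in alveolar type II cells, lipofibroblasts and macrophages, which handle surfactant lipid.

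The study measured what control treatments do to the lungs of C57BL/6 mouse pups, with 4 libraries per group and 32 in all. At postnatal day 6 the groups were saline (25 µl), Miglyol (25 µl, also spelled Migloyl in the labels) and Tamoxifen (0.4 mg in 25 µl of Miglyol), each injected into the peritoneum on days 1 and 2. At day 14 they were Untreated, daily saline (25 µl/g from day 1 to day 13), nuclease-free water (10 µl/g on days 1 and 3), and Scrambled 1 and Scrambled 2, which are locked nucleic acid oligonucleotides of scrambled sequence given in that water (10 mg/kg on days 1 and 3). Tamoxifen was thus always given with the oil, and its vehicle control is the Miglyol group. Pups were killed with pentobarbital at day 6 and with isoflurane at day 14, and the lungs were perfused with PBS through the heart. The labels do not tie libraries to named animals or litters, so p-values measure the spread between these samples only.

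Libraries held 7918537 to 12443221 exon reads, of which 87.5% to 90.9% were unique. Lung identity was plain in every library: the surfactant gene Sftpc lay between 7525 and 12770 CPM (exon reads scaled to a library total of 1000000), the club cell gene Scgb1a1 between 3073 and 7566, and the alveolar type I gene Ager between 840.8 and 1873. Brown fat markers stood out in some day 14 libraries. Ucp1, the uncoupling protein of brown fat, was at most 1.09 CPM in the 12 day 6 libraries and exceeded 5 CPM in 6 of the 20 day 14 libraries, with 169.4 CPM in water replicate 3. The members' day 14 results were also computed without those 6 libraries. In whole tissue, fewer cells of a type and less RNA per cell cannot be told apart.

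Sequence upstream of the members was examined because PPAR with RXR binds a pair of AGGTCA hexamers in the same direction, 1 base apart. RefSeq (GRCm38.p6) held the 250 bases before the start of 6 of the 8 genes; Cpt1b and Angptl4 had no entry. Shown are the promoters of Cpt1a and Acadl, the members that passed the test with Miglyol, and of Acadm and Acadvl, the other dehydrogenases. Letters run 5′ to 3′ on the gene's strand, and capitals mark AGGTCA or its complement TGACCT.
Cpt1a, chr19:3323051-3323300, + strand: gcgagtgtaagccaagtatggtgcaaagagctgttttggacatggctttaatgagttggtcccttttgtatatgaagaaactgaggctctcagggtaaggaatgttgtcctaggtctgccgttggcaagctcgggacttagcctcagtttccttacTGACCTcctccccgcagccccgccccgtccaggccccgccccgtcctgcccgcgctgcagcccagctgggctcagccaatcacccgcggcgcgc
Acadl, chr1:66863310-66863559, - strand: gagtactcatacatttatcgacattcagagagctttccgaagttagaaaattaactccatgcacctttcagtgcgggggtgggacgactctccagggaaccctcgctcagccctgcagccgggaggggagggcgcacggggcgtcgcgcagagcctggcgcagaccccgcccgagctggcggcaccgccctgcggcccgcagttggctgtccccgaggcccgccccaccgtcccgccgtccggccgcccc
Acadm, chr3:153944644-153944893, - strand: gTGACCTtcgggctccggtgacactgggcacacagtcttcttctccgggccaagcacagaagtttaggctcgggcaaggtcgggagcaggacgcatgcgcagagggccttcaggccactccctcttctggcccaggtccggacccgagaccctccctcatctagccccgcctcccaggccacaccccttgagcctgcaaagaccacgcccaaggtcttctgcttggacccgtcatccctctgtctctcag
Acadvl, chr11:70015429-70015678, - strand: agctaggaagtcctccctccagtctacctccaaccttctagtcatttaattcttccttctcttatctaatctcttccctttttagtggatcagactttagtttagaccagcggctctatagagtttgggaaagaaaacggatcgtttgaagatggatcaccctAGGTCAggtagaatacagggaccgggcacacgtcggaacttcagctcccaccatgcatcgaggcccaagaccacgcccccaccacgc
A full hexamer was present in Cpt1a (from -94 to -89, counted back from the start), Acadm (from -249 to -244) and Acadvl (from -87 to -82), and in none of Acadl, Hadha and Pdk4. It occurred on either strand in 14.0% of 32851 promoters of that length. None of the 6 held the full pair, whose 12 fixed letters were searched on both strands. The best site matched 9 of 12 letters in Acadm, a score that 21.3% of all promoters reached or exceeded. It matched 8 in Cpt1a, Acadvl, Hadha and Pdk4, a score that 74.5% of promoters reached, and 7 in Acadl, which 99.6% reached. The Cpt1a sequence lies before a RefSeq start that is downstream of the start of the gene record in the files. These are counts of letters within 250 bases and describe no binding.

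Per kilobase of exon, the members fell into a group of well expressed genes and a pair of weak ones. Mean RPKM over the 32 libraries was 53.0 for Acadl, 35.55 for Angptl4, 31.4 for Cpt1a, 30.5 for Hadha, 29.4 for Acadvl and 26.7 for Acadm. Pdk4 (3.11) and Cpt1b (2.91) were much lower, and their values rest on far fewer reads: 50 to 605 exon reads per library for Pdk4 and 39 to 517 for Cpt1b, against 1563 to 2373 for Cpt1a. For Cpt1b 42.4% of exon reads were unique, so its counts include reads that also map elsewhere, and the gene is uncertain throughout. In the other members at least 96.1% were unique in every library.

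**Figure D1:**
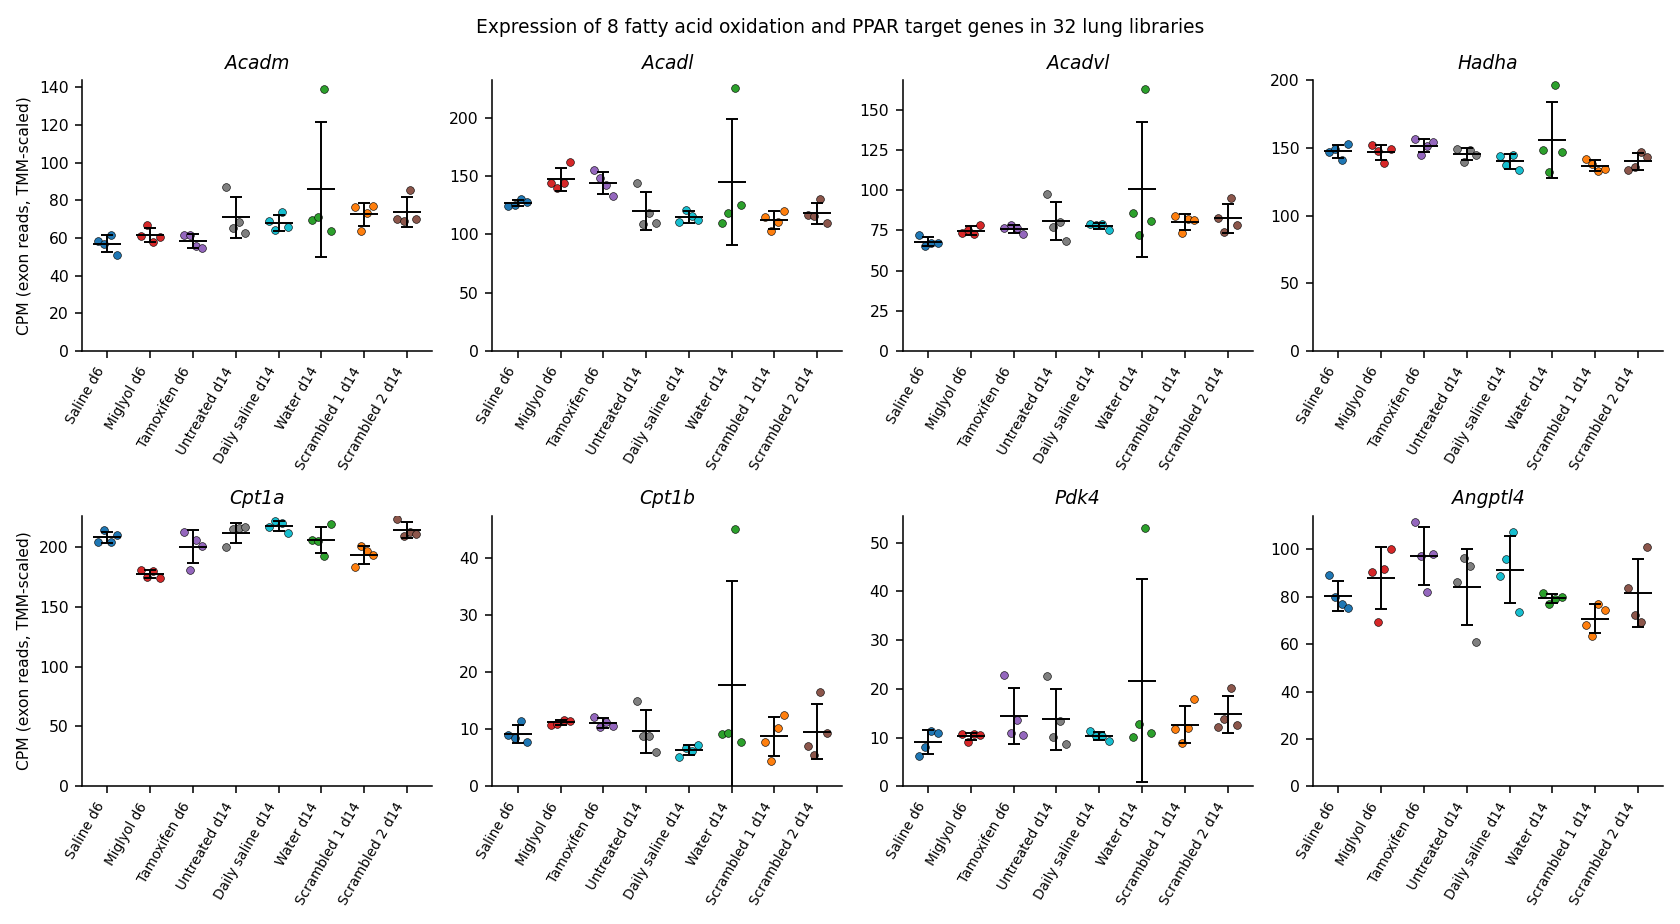
Each panel shows 1 gene in 8 groups, with CPM from exon reads on a linear axis from 0. Points are libraries, horizontal bars are group means and error bars are ± SD (n = 4; those passing below 0 end at the axis). Cpt1a is lowest in the 4 Miglyol libraries (173.5 to 180.8 CPM), and water replicate 3 stands far above its group for Acadm, Acadl, Acadvl, Cpt1b and Pdk4.

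Miglyol against saline asks what the oil alone does in the lung at day 6. Of the 8 members, Cpt1a fell and Acadl rose, by small amounts, and the other 6 did not pass the test. Over all genes 10.6% passed (470 up and 1028 down of 14107 tested, edgeR's quasi-likelihood test, Benjamini-Hochberg adjusted p under 0.05). The median log2 fold change was 0.13 over the 8 members and 0.02 over all genes. CPM ranges did not overlap between the groups for Cpt1a, Acadl and Acadvl, 3 of 8 members, while 21.8% of all genes had ranges that did not overlap. Markers of several lung cell types moved between the same libraries. Summed over 8 lipofibroblast markers, of which 2 fell, the level was 2684 to 2905 CPM with saline and 2244 to 2566 CPM with Miglyol. Over 10 capillary markers, of which 1 fell, it was 2768 to 2929 CPM and 2541 to 2639 CPM. Over 10 lung epithelial markers, of which 2 rose (Sftpc and Scgb1a1), it was 17520 to 18640 CPM and 19460 to 23530 CPM. The median log2 fold change was -0.10 over the lipofibroblast, -0.09 over the capillary and 0.11 over the epithelial markers. The trend with exon length described below was not taken out of these marker values. The part of these cell types in the members' values was not tested.

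Cpt1a (chr19:3322326-3385735, + strand) encodes the liver-type carnitine palmitoyltransferase I, the rate-controlling step for entry of long chains into mitochondria. It measured 203.5, 213.7, 203.9 and 209.5 CPM in the saline libraries. With Miglyol it measured 180.8, 174.7, 179.4 and 173.5 CPM. Every Miglyol library was below every saline library, and elsewhere in the series a single library, tamoxifen replicate 2 (180.5 CPM), reached down to that range. The log2 fold change was -0.23 (SE 0.06, edgeR adjusted p = 0.0182), from 208 ± 4.87 to 177 ± 3.56 CPM (SD, n = 4 each). Leaving out Miglyol replicate 4 or saline replicate 4 raised the edgeR adjusted p to 0.0569 or 0.0622, with the fold change at -0.23 either way, and the other 6 fits with a library left out kept the call.

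The muscle-type enzyme Cpt1b (chr15:89416405-89425862, - strand) was higher in its mean with Miglyol but did not pass the test. Saline libraries had 9.005, 8.549, 11.40 and 7.859 CPM, and Miglyol libraries had 10.73, 10.96, 11.72 and 11.49 CPM. The highest saline library lay within the Miglyol range. The log2 fold change was 0.29 (SE 0.12, edgeR adjusted p = 0.124) with all exon reads and 0.11 with unique reads only. The summed level of 10 heart markers (the heart expresses this isoform) was 529.4 to 614.7 CPM with saline and 506.5 to 708.3 CPM with Miglyol.

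The 3 acyl-CoA dehydrogenases catalyse the first step of the β-oxidation cycle, Acadm for medium, Acadl for long and Acadvl for very long chains. For Acadl (chr1:66830839-66863309, - strand) saline libraries had 124.0, 124.9, 130.0 and 127.7 CPM. Miglyol libraries had 143.7, 139.9, 143.7 and 161.8 CPM, all above the saline group. Its log2 fold change was 0.21 (SE 0.06, edgeR adjusted p = 0.0374). This call held in 1 of 8 fits with a library left out, that without Miglyol replicate 2, and the fold change ranged from 0.16 (without Miglyol replicate 4) to 0.23. Acadvl (chr11:70010183-70015428, - strand) lay between 65.54 and 71.92 CPM with saline and between 72.49 and 78.14 CPM with Miglyol. The groups did not overlap, yet the log2 fold change of 0.14 (SE 0.06) had an edgeR adjusted p of 0.121. Acadm (chr3:153922353-153944643, - strand), the dehydrogenase for the chain lengths that the oil supplies, had 58.60, 56.75, 61.64 and 50.68 CPM with saline. With Miglyol it had 61.10, 66.72, 57.62 and 60.76 CPM. These ranges overlapped, and the 95% interval of its log2 fold change ran from -0.04 to 0.26 (edgeR adjusted p = 0.324).

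Hadha (chr5:30118304-30154980, - strand), the α subunit of the trifunctional protein that completes the cycle for long chains, was level. Its mean was 147.5 ± 4.70 CPM with saline and 147.0 ± 5.49 CPM with Miglyol (SD, n = 4 each). The 95% interval of the log2 fold change, from -0.12 to 0.10, bounds any difference in either direction.

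Pdk4 and Angptl4 are widely used as readouts of PPAR activity. Pdk4 (chr6:5483351-5496278, - strand) encodes a kinase that turns off pyruvate dehydrogenase and so spares glucose. It had 6.168, 8.054, 11.40 and 10.86 CPM with saline. It had 10.73, 9.112, 10.74 and 10.45 CPM with Miglyol, inside the saline range. The 95% interval of its log2 fold change was wide, from -0.36 to 0.67 (edgeR adjusted p = 0.705). Angptl4 (chr17:33774900-33781575, - strand) encodes a secreted inhibitor of lipoprotein lipase. Its values were 89.31, 80.04, 77.09 and 75.32 CPM with saline and 90.32, 69.32, 91.81 and 99.98 CPM with Miglyol. The groups overlapped, with a log2 fold change of 0.13 (95% interval -0.10 to 0.35, edgeR adjusted p = 0.449).

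A trend with exon length ran through this comparison over all genes. The median log2 fold change was 0.24 in the shortest of 10 equal length classes and -0.24 in the longest. Acadl (1948 exon bases), Acadm (2062) and Acadvl (2188) sit in a length class whose median was 0.10, and Cpt1a, the longest member (5188 exon bases), in a class whose median was -0.08. The longest members, Cpt1a and then Hadha (3835 exon bases), were those with values below 0 (-0.23 and -0.01). The shortest, Angptl4 (1903 exon bases), was at 0.13 beside a class median of 0.16. The highest value, 0.29, was that of Cpt1b (2894 exon bases) beside a class median of 0.07, and it was 0.11 with unique reads only. With the length trend removed, an alternative chosen after seeing the data, 357 genes passed and none of the 8 members did. Acadl then had a log2 fold change of 0.09 (edgeR adjusted p = 0.384) and Cpt1a one of -0.16 (edgeR adjusted p = 0.0669). The share of reads in introns also differed, at 15.03% ± 0.90 with saline and 13.1% ± 1.25 with Miglyol (SD, n = 4 each), and with that share as a covariate 2 genes and no member passed. For Cpt1a itself the intron reads per 100 exon reads were 7.45 ± 0.79 with saline and 6.00 ± 0.99 with Miglyol. For Acadl they were 41.1 ± 3.04 and 40.2 ± 2.39 (SD, n = 4 each).

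**Figure D2:**
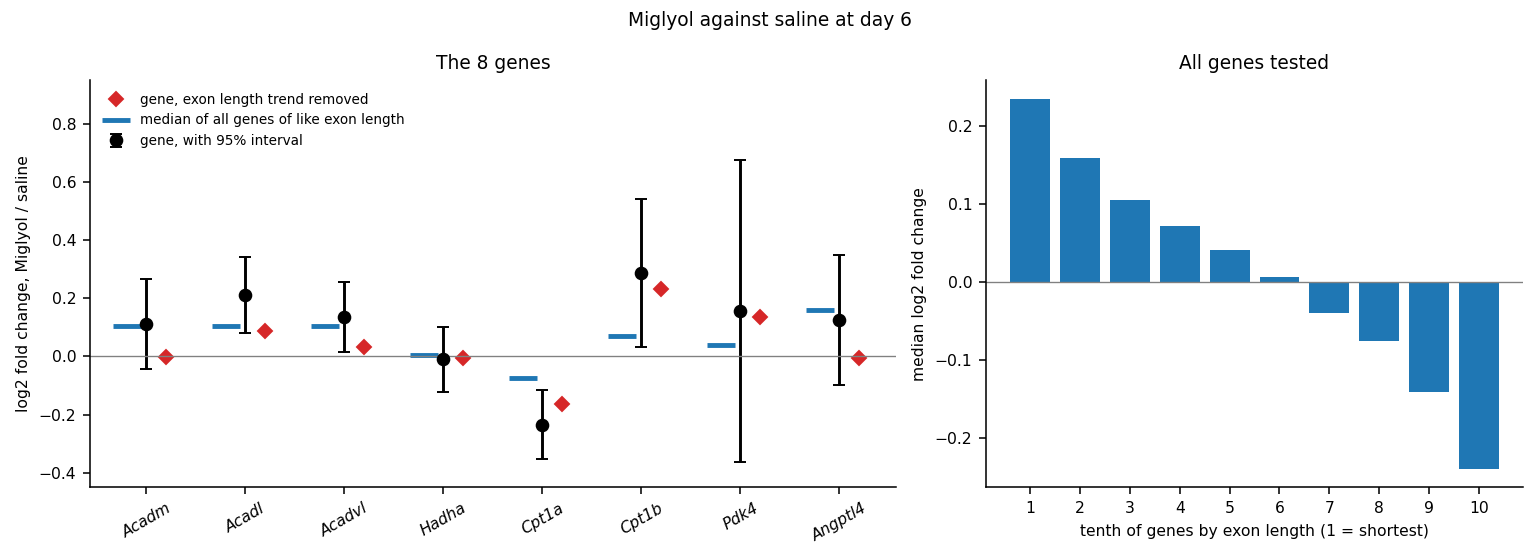
Left, log2 fold change of each member with Miglyol (black, 95% interval), the same with the exon length trend removed (red) and the median of all genes in the same exon length class (blue). Right, that median over all 10 classes, from 0.24 in the shortest to -0.24 in the longest; without the trend Cpt1a moves from -0.23 to -0.16 and Acadl from 0.21 to 0.09, neither past the threshold.

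The wider pathway was followed through 11 lists with 132 genes tested beside the members. With Miglyol 12 of these rose and 4 fell, which is 12.1% beside 10.6% of all genes. Among 14 genes of uptake and activation 4 rose: Fabp4 (log2 fold change 0.85, SE 0.23), the adipocyte and endothelial fatty acid binding protein, Slc27a1 (0.34, SE 0.09), a fatty acid transporter, Fabp3 (0.32, SE 0.10), the heart-type binding protein, of whose reads 39.3% were unique, and Dbi (0.31, SE 0.07), an acyl-CoA binding protein. The list's median was 0.10 against 0.02 for all genes. Fabp4 had ranges that overlapped, at 5.31 ± 0.92 CPM with saline and 9.67 ± 3.22 CPM with Miglyol (SD, n = 4 each). Beside it, the summed level of 10 white fat markers was 30.88 to 35.31 CPM with saline and 35.64 to 44.80 CPM with Miglyol, and the part of fat tissue in these values was not tested.

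The lists around the members' own steps are set beside the 10.6% of all genes that passed. In the carnitine shuttle 1 of 8 genes rose, the carnitine transporter Slc22a5 (0.30, SE 0.08), with a list median of 0.06. In mitochondrial β-oxidation 2 of 17 rose, Etfb (0.33, SE 0.08), which hands electrons from the dehydrogenases to the respiratory chain, and the thioesterase Acot13 (0.41, SE 0.11), with a list median of 0.12. None of the 5 tested enzymes that activate or shuttle medium and short chains passed. In peroxisomal oxidation 2 of 17 rose, the thiolase Acaa1a (0.25, SE 0.07) and the phytanoyl-CoA hydroxylase Phyh (0.25, SE 0.07).

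Among 18 regulators tested 4 fell and none rose, among them the corepressors Ncor1 (-0.47, SE 0.11) and Nrip1 (-0.41, SE 0.09) and the coactivator Pprc1 (-0.33, SE 0.09). These named genes have 6614 exon bases or more and lie in length classes whose medians were -0.14 and -0.24. None of the 12 other PPAR targets tested, none of 10 genes of lipolysis and none of 10 genes that respond to fasting or glucocorticoids passed. Of pyruvate metabolism 2 of 14 rose, Pdhb (0.23, SE 0.06) and the pyruvate carrier Mpc2 (0.32, SE 0.09), and of ketone metabolism 1 of 7. With the length trend removed, Slc27a1 (0.36, edgeR adjusted p = 0.0311) was the single gene among these 16 that passed.

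**Figure D3:**
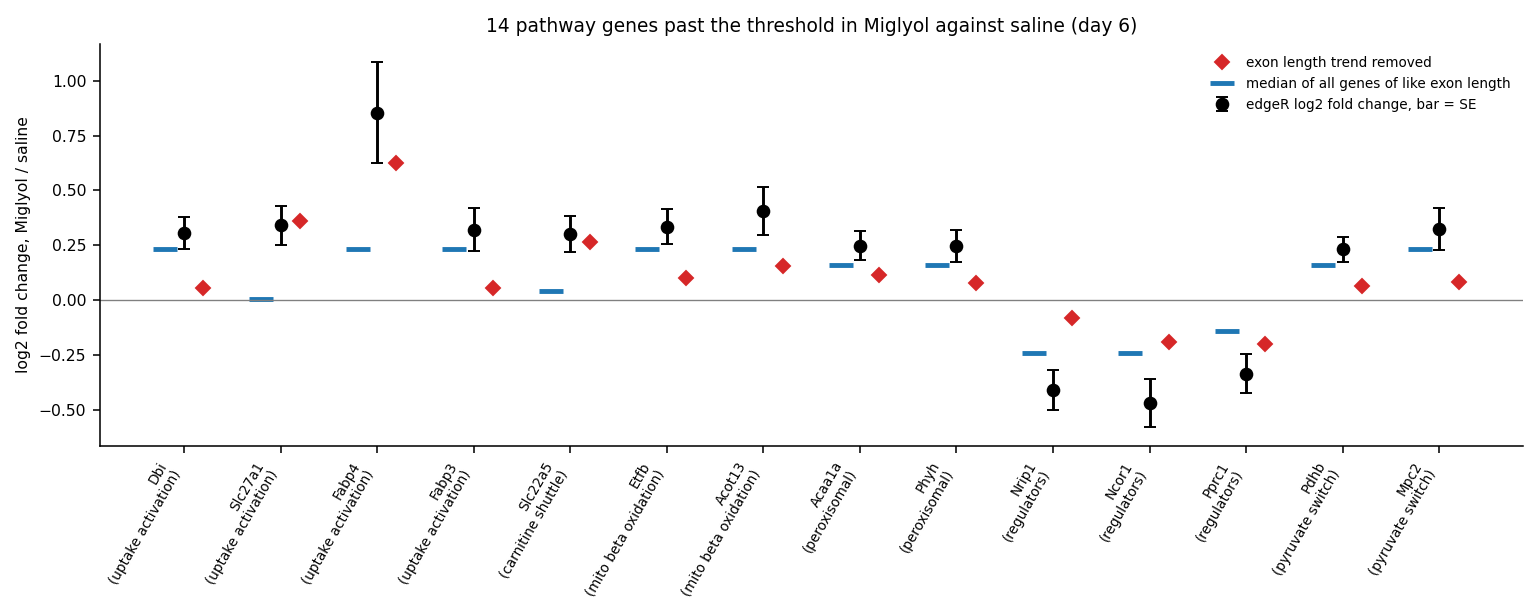
Of the 16 pathway genes past the threshold with Miglyol, 14 are shown, as log2 fold change with SE (black), with the exon length trend removed (red) and the median of all genes of like exon length (blue). Most red points lie nearer 0 than the black ones, and Slc27a1 (0.34 and 0.36) and Slc22a5 (0.30 and 0.27) change least.

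Adding tamoxifen to the oil asks what the drug does beyond its vehicle. None of the 8 members passed in Tamoxifen against Miglyol with edgeR (2 at an unadjusted p under 0.05, beside 19.6% of all genes, and 1 adjusted with DESeq2), while 5.68% of all genes did (524 up and 277 down of 14107, edgeR). Cpt1a measured 212.5, 180.5, 205.4 and 200.9 CPM in the tamoxifen libraries, so 3 of 4 lay near the saline level and replicate 2 reached down to the Miglyol range. Its log2 fold change was 0.18 (SE 0.06, edgeR adjusted p = 0.0742). Without tamoxifen replicate 2 it was 0.22 with an edgeR adjusted p of 0.0141, and with the length trend removed 0.17 with 0.0277. No member had ranges that did not overlap, beside 11.1% of all genes.

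Pdk4 had the largest mean difference of the members with tamoxifen, and it rested on a single library. It measured 22.90, 10.96, 13.66 and 10.50 CPM, against 9.112 to 10.74 CPM with Miglyol. Its mean was higher by 0.49 on the log2 scale (SE 0.23, edgeR adjusted p = 0.252), or by 0.19 without tamoxifen replicate 1. Angptl4 measured 111.7, 97.36, 82.02 and 98.22 CPM with tamoxifen and overlapped the Miglyol group (log2 fold change 0.15, 95% interval -0.07 to 0.37). The dehydrogenases and Hadha differed by -0.07 to 0.05 on the log2 scale, none past the test.

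Other genes of the pathway lists did pass with tamoxifen, not all of them genes of lipid metabolism. Of the 132 pathway genes 14 rose and 1 fell, 11.4% beside 5.68% of all genes. Of the 14 that rose, 6 belong to the list of genes known to respond to fasting or glucocorticoids, which is not a list of lipid metabolism. In that list 6 of 10 rose, with a median of 0.37 against -0.004 for all genes. The share of 11.4% therefore does not describe lipid genes alone. Among them were the clock gene Per1 (log2 fold change 1.05, SE 0.11), from 38.8 ± 5.56 to 80.3 ± 10.4 CPM, and the transcription factor Zbtb16 (1.40, SE 0.23), from 5.55 ± 0.56 to 14.7 ± 6.03 CPM (SD, n = 4 each). Klf15 (0.62, SE 0.12), a transcription factor of fasting metabolism, rose, and the retinoid receptor Rxrg fell (-1.13, SE 0.26) from 2.24 ± 0.44 to 1.02 ± 0.25 CPM.

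Genes of fatty acid handling that rose with tamoxifen were Fabp5 (0.47, SE 0.09), Acsl1 (0.44, SE 0.08), which activates long chains, Acsm1 (0.75, SE 0.17), which activates medium chains, Acox2 (0.70, SE 0.17) of the peroxisome, the endothelial lipase Lipg (0.49, SE 0.10), the lipid droplet coat Plin2 (0.29, SE 0.08) and G0s2 (0.41, SE 0.12), of whose reads 12.5% were unique. Markers of immune cells moved in the same libraries. Of 10 markers of lipid-laden macrophages, a list that holds Fabp5 itself, 7 rose, with a median of 0.87, and their sum was 1261 to 1317 CPM with Miglyol and 1423 to 2089 CPM with tamoxifen. Plin2 is also among the 8 lipofibroblast markers, of which 1 rose and 1 fell. Summed over 11 alveolar macrophage markers the level was 288.7 to 325.0 CPM with Miglyol and 362.1 to 718.5 CPM with tamoxifen. Over 8 neutrophil markers it was 67.85 to 83.62 CPM with saline, 130.4 to 174.7 CPM with Miglyol and 265.7 to 977.1 CPM with tamoxifen. The part of these cells in the values above was not tested.

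Tamoxifen against saline shares its groups with both comparisons above and is given for its values. Acadl passed (log2 fold change 0.19, SE 0.06, edgeR adjusted p = 0.0374), 1 of 8 members beside 23.7% of all genes. It measured 154.7, 148.1, 141.9 and 132.6 CPM with tamoxifen. The call held in 1 of 8 fits with a library left out, that without tamoxifen replicate 4. Acadvl (0.16, edgeR adjusted p = 0.0515), Pdk4 (0.65, edgeR adjusted p = 0.0594) and Angptl4 (0.27, edgeR adjusted p = 0.0682) did not pass. The Pdk4 value depended on tamoxifen replicate 1, without which it was 0.35 (edgeR adjusted p = 0.165), whereas without tamoxifen replicate 2 or 4 it passed (0.76 and 0.77). Acadvl passed without saline replicate 1 or tamoxifen replicate 4 (0.19 and 0.18) and Angptl4 without tamoxifen replicate 3 (0.35). For Cpt1a the value was -0.06 (95% interval -0.18 to 0.06). With the length trend removed no member passed, and Acadl had 0.08.

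At day 14 the comparisons ask what injections, water and scrambled oligonucleotides do on their own. No member passed in any of the 6 comparisons with edgeR or DESeq2, and at an unadjusted p under 0.05 edgeR gave 2 members for daily saline against water, beside 17.7% of all genes at that p, 2 for Scrambled 1 against water, beside 11.0%, 1 for Scrambled 1 against Scrambled 2, beside 10.9%, and 0 elsewhere. The share of all genes that passed the adjusted threshold was 0.233% for daily saline against untreated, 0.0494% for water against untreated, 2.74% for daily saline against water, 0.12% for Scrambled 1 against water, 0% for Scrambled 2 against water and 0.205% for Scrambled 1 against Scrambled 2. For Scrambled 2 against water edgeR called 0 genes, with 755 of 14179 at an unadjusted p under 0.05, limma-voom called 0 and DESeq2 5. For several members the spread between libraries of the same group was nonetheless wide at this age. Cpt1a was held more tightly, with SDs of 4.48 to 10.9 CPM around group means of 193 to 217 CPM.

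Water replicate 3 was the extreme. Pdk4 measured 10.12, 12.82, 52.92 and 10.92 CPM in the 4 water libraries, and Cpt1b 9.196, 9.340, 45.22 and 7.738 CPM. Acadl measured 109.6, 118.4, 225.2 and 125.4 CPM, Acadm 69.28, 71.05, 139.2 and 63.60 CPM, and Acadvl 86.04, 72.14, 163.0 and 80.56 CPM. In all 5 genes replicate 3 stood alone, and Hadha (196.6 CPM against 132.1 to 148.5) was higher there too. Cpt1a (192.5 CPM) and Angptl4 (79.08 CPM) were not raised in it.

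Brown fat burns fatty acids for heat and expresses these enzymes strongly. In water replicate 3 Ucp1 was 169.4 CPM, Cidea 48.64 CPM, and the summed level of 7 brown fat markers 270.5 CPM against 3.816 to 12.72 CPM in the other water libraries. The skeletal muscle gene Acta1 was 87.82 CPM there, and the white fat gene Adipoq 28.95 CPM. Over the water group 12 skeletal muscle markers summed to 6.784 to 418.2 CPM and 10 white fat markers to 41.02 to 355.9 CPM. Scrambled 2 replicate 3 (Ucp1 39.65 CPM) and untreated replicate 1 (Ucp1 24.95 CPM) came next. Summed brown fat markers ranged from 3.381 to 44.59 CPM in the untreated group, 3.848 to 4.825 CPM with daily saline, 3.831 to 17.90 CPM with Scrambled 1 and 4.209 to 66.99 CPM with Scrambled 2. Of the defining markers Elovl3 had 0 reads in 17 of the 20 libraries. The heart gene Myh6 was also highest of its group in these libraries. It was 218.8 CPM in water replicate 3, 204.6 CPM in untreated replicate 1 and 163.8 CPM in Scrambled 2 replicate 3. Scrambled 1 replicate 3, with Ucp1 at 0.21 CPM, had 134.3 CPM. The part of brown fat, white fat, heart or skeletal muscle in the members' levels was not tested.

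Most members were high in the same libraries. Set against the median of the 14 libraries with Ucp1 up to 5 CPM, Pdk4 was 4.96 times as high in water replicate 3, 2.11 times in untreated replicate 1 and 1.90 times in Scrambled 2 replicate 3. For Cpt1b the ratios were 6.29, 2.08 and 2.30. Acadm (2.02, 1.27 and 1.25), Acadl (2.02, 1.29 and 1.17) and Acadvl (2.07, 1.24 and 1.21) followed in smaller steps. Hadha was at 1.39 in water replicate 3 but at 1.06 and 1.04 in the next libraries. Cpt1a (0.90, 0.93 and 0.98) and Angptl4 (0.96, 1.04 and 0.84) did not follow. In the other 14 libraries Acadm spanned 62.78 to 73.65 CPM, Acadl 102.6 to 125.4, Acadvl 68.64 to 86.04, Hadha 133.1 to 148.5 and Cpt1a 196.2 to 223.3 CPM. Spans there were wider in proportion for Pdk4 (8.679 to 13.88 CPM), Angptl4 (60.87 to 107.3 CPM) and Cpt1b (4.527 to 10.26 CPM).

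**Figure D4:**
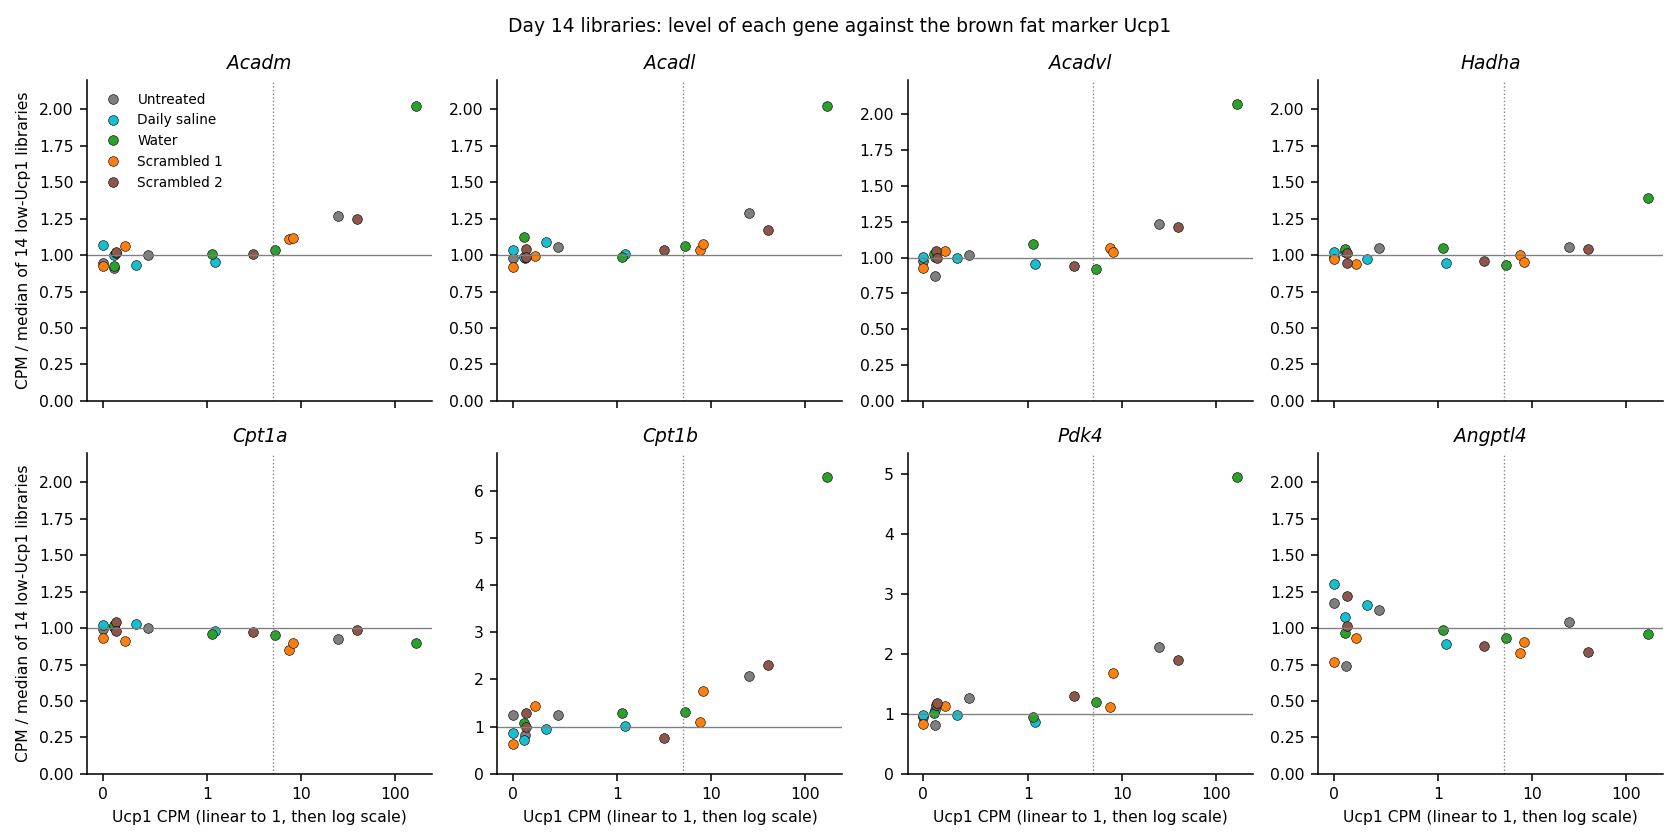
Each point is a day 14 library, with Ucp1 CPM on the horizontal axis (linear to 1, then logarithmic) and the gene's CPM divided by its median over the 14 libraries left of the dotted line at 5 CPM on the vertical axis. Cpt1b and Pdk4 reach 6.29 and 4.96 in water replicate 3, and Cpt1a and Angptl4 stay at 0.90 and 0.96.

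Of 48 differences between day 14 groups (8 members in 6 comparisons) 41 were nearer 0 without the 6 libraries and 7 were farther from it. This choice was made after seeing the data and leaves 2 water, 2 Scrambled 1, 3 Scrambled 2, 3 untreated and 4 daily saline libraries. Most members were high in some of the libraries left out, and the comparisons share groups, so these counts are a description only. For daily saline against water Pdk4 went from -1.09 (edgeR adjusted p = 0.262) to -0.02, Cpt1b from -1.51 (edgeR adjusted p = 0.174) to -0.41 and Acadm from -0.34 (edgeR adjusted p = 0.394) to 0.03 on the log2 scale. For water against untreated Pdk4 went from 0.69 to -0.04 and Cpt1b from 0.92 to 0.09. For Scrambled 1 against water Pdk4 went from -0.78 to -0.003 and Acadvl from -0.33 to -0.10. The 7 that grew were 4 of Angptl4 and 1 each of Acadl, Cpt1a and Pdk4, among them Pdk4 (from -0.21 to -0.30) and Angptl4 (from -0.20 to -0.28) in Scrambled 1 against Scrambled 2. No member passed with or without them.

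Cpt1a and Angptl4, the members not raised in water replicate 3, differed in how tightly they were held. Cpt1a was lower in its mean in Scrambled 1 (182.9, 200.6, 196.2 and 193.0 CPM) than in Scrambled 2 (223.3, 208.5, 211.8 and 210.5 CPM). The log2 fold change of -0.14 (SE 0.05) did not pass (edgeR adjusted p = 0.290). Angptl4 spread widely within groups, from 60.87 to 96.55 CPM in untreated and from 73.61 to 107.3 CPM with daily saline, and all group ranges that neighbour each other in the order of means overlapped.

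At day 14 few pathway genes passed. Daily saline against untreated had 1 call among 133 pathway genes (0.752% beside 0.233% of all genes), the peroxisomal catalase Cat (log2 fold change 0.28, SE 0.06). Against water 3 passed (2.26% beside 2.74%): Cat rose too (0.29, SE 0.06), and Ppargc1b (-1.16, SE 0.25), a coactivator of mitochondrial genes, and the peroxisomal thiolase Acaa1b (-0.90, SE 0.25) fell. For Ppargc1b the water mean was 7.23 ± 3.86 CPM and that of daily saline 3.28 ± 0.49 CPM (SD, n = 4 each). Cat was lower in Scrambled 1 than in Scrambled 2 (-0.28, SE 0.06), and no pathway gene passed in either scrambled group against water. Without the 6 libraries with high Ucp1, Cat passed against untreated (0.33, edgeR adjusted p = 0.0343) and 2 of all genes passed in daily saline against water. There Cat was at 0.23, Acaa1b at -0.89 and Ppargc1b at -0.60, none past the threshold. Cat in Scrambled 1 against Scrambled 2 was then at -0.27 and did not pass either (edgeR adjusted p = 0.566).

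Day 14 against day 6 sets the mean of 5 groups against the mean of 3, and age cannot be told apart from the treatments and the anaesthetic, which differ between the ages. Acadm (log2 fold change 0.33, SE 0.08), Acadvl (0.21, SE 0.08) and Cpt1a (0.10, SE 0.03) were higher at day 14 and Acadl was lower (-0.20, SE 0.07), 4 of 8 members beside 61.4% of all genes. With the intronic share as a covariate Acadvl did not pass (0.12, edgeR adjusted p = 0.252). Acadm lay between 50.68 and 66.72 CPM in the 12 day 6 libraries. Without the 6 libraries above, 6 of 8 members passed. In the same fit 8608 of all genes passed, where the fit with all libraries called 8842, or 61.4% of 14406. Cpt1b (-0.48, edgeR adjusted p = 0.000176) and Hadha (-0.08, edgeR adjusted p = 0.0145) were then lower too. In that fit Acadm was at 0.20, Acadvl at 0.11, Acadl at -0.30 and Cpt1a at 0.12. Pdk4, at 0.36 with all libraries, was then at -0.01. Cpt1b is the isoform of heart and muscle. With all libraries, 8 of 10 heart markers were lower and 1 higher at day 14, with a median log2 fold change of -0.98. Their sum was 407.0 to 708.3 CPM at day 6 and 143.5 to 714.8 CPM over all day 14 libraries, high Ucp1 or not. The part of heart tissue in the Cpt1b value was not tested.

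Of 134 pathway genes 57 were higher and 23 lower at day 14, 59.7% beside 61.4% of all genes. Without the 6 libraries 52 of 133 were higher and 31 lower, in the fit where 8608 of all genes passed (8842, or 61.4%, with all libraries). Among 17 peroxisomal genes 11 were higher and 1 lower (9 and 1 without the 6 libraries), with a median of 0.10 against -0.01 for all genes. Of uptake genes Cd36, the fatty acid translocase of capillaries and macrophages, was higher (0.89, SE 0.04) and Slc27a6 lower (-1.81, SE 0.07). Of PPAR targets Hilpda was higher (1.09, SE 0.07) and Acot1 lower (-0.82, SE 0.05). Lipg (0.83, SE 0.06) and Gpihbp1 (0.66, SE 0.05), which anchors lipoprotein lipase on capillaries, were higher. All 10 capillary markers, a list that holds Cd36 and Gpihbp1, were higher too. Without the 6 libraries these named genes all passed, with Cd36 at 0.90, Slc27a6 at -1.76, Hilpda at 1.13, Acot1 at -0.82, Lipg at 0.87 and Gpihbp1 at 0.69.

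**Figure D5:**
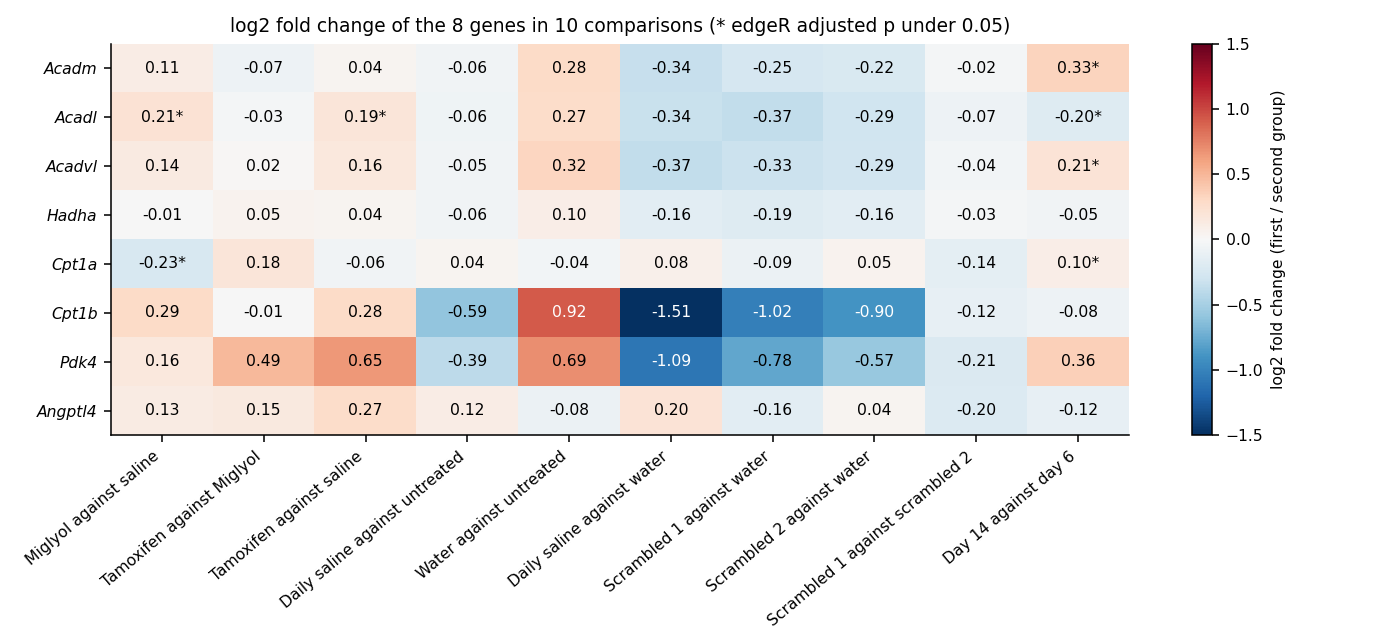
Rows are the 8 members and columns the 10 comparisons. Each cell gives the log2 fold change of the first group over the second, coloured from blue (lower) to red (higher), with a star where the edgeR adjusted p is under 0.05. Stars appear for Cpt1a and Acadl with Miglyol, Acadl with tamoxifen against saline, and 4 genes between the ages, and the deepest colours are those of Cpt1b and Pdk4 in comparisons with water.

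Ordered by group mean, most neighbouring groups overlapped for every member. Cpt1a ran from 217 CPM with daily saline down to 193 CPM in Scrambled 1 and 177 CPM with Miglyol, and the last step was the single gap between neighbours. For Acadl the gap lay between tamoxifen (144 CPM) and the saline group of day 6 (127 CPM), and for Acadvl between Miglyol (74.9 CPM) and that saline group (67.9 CPM). Acadm, Hadha, Cpt1b, Pdk4 and Angptl4 had no gap between neighbours.

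Within groups, the genes most like each member were found by Pearson r of log2 CPM after subtracting group means, over 32 libraries and 11653 other genes, as a description. Acadm was most like Acadvl (r = 0.92, or 0.74 without water replicate 3), Hadhb (0.92, or 0.73) and Dgat2 (0.91, or 0.77). Acadl was most like Acadvl (0.91, or 0.68 without that library), Hadhb (0.90, or 0.66) and Cs (0.90, or 0.60). Pdk4 was most like Acadl (0.89, or 0.77 without that library). Hadha was nearest to Atp5a1 (0.89, or 0.69 without it) and Atp5b (0.89, or 0.63), genes of ATP synthase. Cpt1a stood apart, with Arrb1 (0.81), Zfp592 (0.78) and Cds2 (0.77) nearest and a value of -0.56 with Acadm. Angptl4 was most like Cyp26b1 (0.85), Aspscr1 (0.80) and Rarres2 (0.80), and its r with the other 7 members lay between 0.05 and 0.14. All points of these values share libraries and depth.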

How the data were processed

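RNA from lung was sequenced in 32 libraries (TruSeq Stranded mRNA, per the labels), 4 in each of 8 groups taken from the sample labels. The submitters' processing notes name bcl2fastq 2.0. The aligner, build and strand setting were not given in the sources used here. Deposited tables give counts of exon, intron and gene reads for 46165 records, total and unique, and RPKM values computed by the authors. Of 43003 gene IDs also in RefSeq GRCm38.p6, 97.4% start within 5 kb of it, and 7 of the 8 members have identical coordinates. Coordinates are those of the files.

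Total exon counts were tested in R 4.3.3 by the robust quasi-likelihood F test of edgeR 4.0.16, after filterByExpr and TMM scaling, on all groups of an age together, and day 14 against day 6 on all 32 libraries. A gene was past the threshold at an adjusted p under 0.05 (Benjamini-Hochberg, over all genes tested). SE is the absolute log2 fold change over the square root of F, and intervals are 95%. CPM values are TMM-scaled. RPKM values served only to compare levels between genes. No deposited column of another sample was used. The code was tested on simulated data with known fold changes.

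The members, lists and tests were chosen with earlier results of these data known. Named genes are all members, up to 4 genes per pathway list past the threshold with the smallest p for Miglyol against saline and up to 2 per list elsewhere, and the 3 genes most like each member among those with a mean of at least 5 CPM, predicted names left out. A few genes that these rules name are not reported here. The 11 pathway lists hold 152 genes. The 12 marker lists are used as sums. Ppargc1b, Acaa1b and Cat are the list genes called at day 14. Alternatives were DESeq2 1.42.0, limma-voom (limma 3.58.1), RLE scaling, no filter, unique reads, other sets of samples, the replicate block, Xist or the intronic share as a covariate and each library left out. Removal of the length trend (lowess, span 0.3) and the fit without libraries with Ucp1 over 5 CPM were added after results were seen.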

Additional observations from a re-analysis of the deposited data

Results flagged for a closer look

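In each group of 4 libraries the highest and lowest value of each member was compared with the nearest other library, by Dixon's ratio of that gap to the group's range and its 95% critical value. Of 64 groups and genes 7 held a library this far from the others, where chance gives about 1 in 20, and 5 of the 7 were water replicate 3. In that library Acadm was 139.2 CPM (others 63.60 to 71.05), Acadl 225.2 CPM (others 109.6 to 125.4), Acadvl 163.0 CPM (others 72.14 to 86.04), Cpt1b 45.22 CPM (others 7.738 to 9.340) and Pdk4 52.92 CPM (others 10.12 to 12.82). In Scrambled 2 replicate 3, Acadm was 85.62 CPM (others 69.19 to 70.03). In untreated replicate 1, Cpt1a was low at 199.4 CPM (others 214.4 to 216.4). These 3 libraries are the ones with the highest Ucp1 (169.4, 39.65 and 24.95 CPM). Among day 14 libraries they also had the highest Myh6, a heart gene (218.8, 163.8 and 204.6 CPM). The part of brown fat or heart in the values was not tested.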

How the results depend on the processing

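For Miglyol against saline 2 members and 1498 genes passed. The members numbered 0 with the replicate block, 0 with the intronic share as a covariate, 0 with the exon length trend removed and 1 with all 32 samples in one fit, and 0 to 2 with each library left out. The genes numbered 461 with the block, 2 with the intronic share, 357 without the trend, 2272 in the joint fit, 2573 with only the samples compared, and 308 (without saline replicate 4) to 1729 (without Miglyol replicate 2) with each library left out. For Tamoxifen against Miglyol no member passed in the main test and 1, Cpt1a, passed with DESeq2, the intronic share, the trend removed, the joint fit or without tamoxifen replicate 2 (0 to 1 over the libraries left out). For Tamoxifen against saline 1 member passed. That number was 2 with DESeq2, limma-voom, unique reads, Xist or only the samples compared, 0 with the block, the intronic share, the trend removed or the joint fit, and 0 to 3 with each library left out. Counts of all genes past the threshold also moved by over 1.5 times: 801 to between 429 and 1265 for Tamoxifen against Miglyol, 3343 to between 1203 and 3924 for Tamoxifen against saline, 33 to between 0 and 114 for daily saline against untreated, 7 to between 0 and 23 for water against untreated, 389 to between 2 and 582 for daily saline against water, 17 to between 1 and 98 for Scrambled 1 against water, 0 to between 0 and 5 for Scrambled 2 against water and 29 to between 0 and 205 for Scrambled 1 against Scrambled 2. The cause of these differences was not tested. No value past the threshold changed sign in any alternative run, and 63 of 1505 values not past it did.

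Replicate numbers were shared by the groups of an age, but same-numbered libraries did not deviate together: for Miglyol against saline their correlations ran from -0.27 to 0.13, and 1 of 4 pairs correlated best with its own number. With the replicate block, Cpt1a had an adjusted p of 0.0547 and Acadl of 0.0940. Pdk4 and Cpt1b are limited by depth, at 50 and 39 exon reads in their lowest libraries. Fits without libraries with Ucp1 over 5 CPM leave as few as 2 libraries in a group.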
